A study of Zea mays with 36 samples.

Results

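The early response of maize roots to nitrate was measured 30 min after seedlings were moved into it. All plants were of Zea mays inbred line B73, whose genome serves as the maize reference, and all had been raised in germination paper with 5 mM calcium sulfate as the bath. On day 11 the seedlings spent 30 min with calcium nitrate at 5 mM or, as the control, with a fresh bath of 5 mM calcium sulfate, and root tissue was then harvested. Nitrate seedlings lost their sulfate supply in the same step, and these 2 changes cannot be told apart. The comparison holds the 18 scans whose labels give the early time, out of 36 scans in the series, and they belong to 6 of its 12 biological replicates. The other 18 scans are of 6 replicates of other plants, kept in the same baths for 24 h from day 10. They entered the joint fit of both times, which gave the 30 min tests their dye effect and spread. Their own ratios are used below only where the early response is set against the later one.

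Each replicate paired the RNA of a nitrate sample with that of its control on a single slide spotted with cDNA clones. One sample was labelled with the red dye Cy5 and the other with the green dye Cy3. The nitrate sample carried Cy3 in the odd-numbered replicates and Cy5 in the even-numbered ones. Every array was scanned at a Low, a Medium and a High power setting. Median foreground signals were 724 to 1420 units in the Low scans, 2210 to 3570 in the Medium scans and 5350 to 7050 in the High scans, and at most 0.368%, 1.52% and 4.42% of spots reached the scanner's ceiling. The 3 scans of a replicate were averaged into 1 log2 ratio of nitrate over control, so that n is 6, and a positive ratio means a higher level in nitrate. With 6 arrays the number of replicates limits the precision.

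Nitrate is the main form of nitrogen that crops take from aerated soil. Roots import it through dedicated transporters, reduce it to nitrite and then to ammonium, and fix the ammonium into glutamine and glutamate. Nitrate is also a signal: in plants in general, genes for its transport, its reduction and the supply of reducing power are known to be induced within minutes of the first contact, without need for new protein. Which of these genes the array measured could not be read here. Of the 7688 probes, 7685 carry only the accession of a clone, 2 carry a gene name in the files (rf2e3 and colim15a) and 1, AI665898, is paired with a gene by the RefSeq table of Zm-B73-REFERENCE-NAM-5.0. The lists for nitrate uptake, nitrate reduction, ammonium assimilation, sulfate uptake and markers of root and leaf cells therefore had no probe that could be matched, and the tissue label was not checked against its markers. The array compares whole roots, in which fewer cells of a type and less RNA per cell cannot be told apart.

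The fast response, as called by the test, was narrow and ran almost wholly upward. By the joint limma fit 82 probes (1.07% of the 7688 tested) were higher in nitrate and 6 (0.078%) were lower at an adjusted p under 0.05. These are 88 in all (1.14%), a count that was 58 without replicate 5. At an unadjusted p under 0.05 the numbers were 225 higher (2.93%) and 85 lower (1.11%). A fit of the 30 min arrays alone gave 84 higher (1.09%) and 8 lower (0.104%). The ratios of most probes stayed close to the centre of the scans. From the 5th to the 95th percentile of all probes, fitted log2 ratios ran between -0.17 and 0.20, while the 99th percentile was 0.53 and the 1st was -0.28. Normalization sets that centre, so a shift shared by all transcripts would not be seen.

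Ratios of more than 1.5-fold were found for 67 higher probes, of which 63 passed the test, and for 2 lower probes, of which 0 passed. More than 2-fold higher were 25 probes, all of which passed, and 0 probes were lower by that much. The preference for rises weakened steadily down the ranking by p-value. All of the first 50 probes were higher in nitrate, 90 of the first 100, 167 of the first 200, 324 of the first 500 and 540 of the first 1000. The median size of the log2 ratio was 1.00 in the first 50 and 0.22 in the first 1000. A further 18 higher and 5 lower probes had an adjusted p between 0.05 and 0.10, with fitted log2 ratios of 0.39 to 0.62 and of -0.53 to -0.44.

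The probes that passed had mean log2 signals of 8.76 to 14.91, within a range of 6.35 to 15.66 for all probes. In 4 sets of 1922 probes, ordered from the dimmest to the brightest by mean log2 signal, 15, 23, 18 and 26 probes were higher in nitrate, and 0, 4, 2 and 0 were lower. The median log2 ratio of the higher probes lay between 0.64 and 0.80 in each set. The highest log2 ratio was 2.03 in the dimmest set and 3.04 in the brightest, with the maximum of 3.46 in the third.

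**Figure D1:**
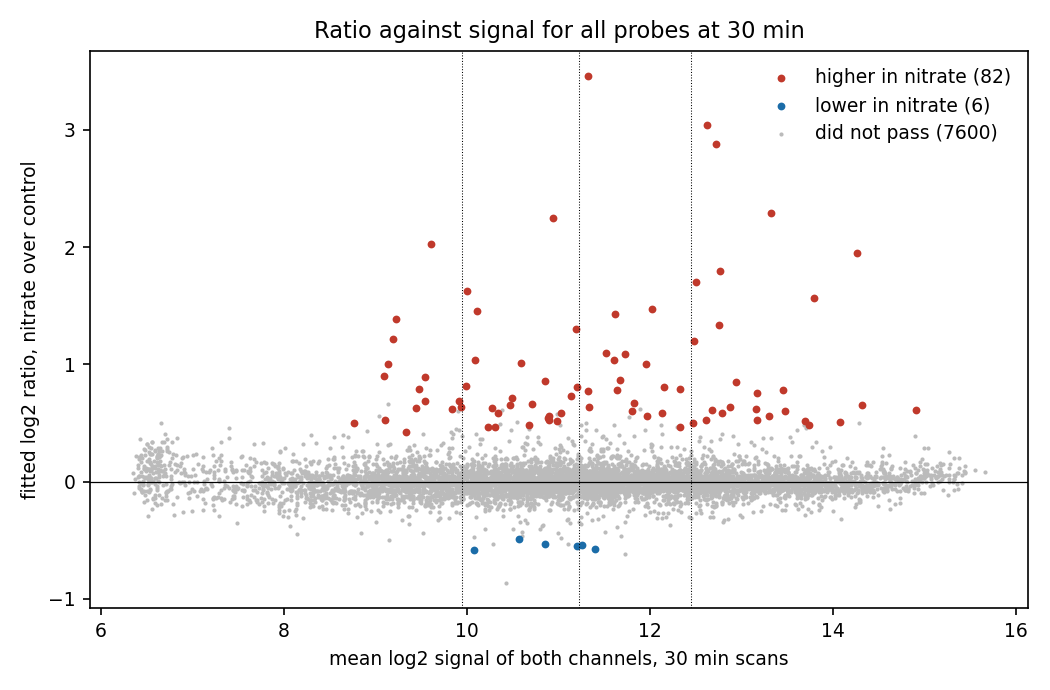
Fitted log2 ratio of nitrate over control at 30 min (vertical axis) against the mean log2 signal of both channels (horizontal axis) for 7688 probes, with red points for the 82 higher probes, blue points for the 6 lower ones and grey points for the others; dotted lines part the 4 sets by signal. Red points occur at signals of 8.76 and above, with a highest ratio of 3.46, and the lower probes stay between -0.58 and -0.49.

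The strongest rise was that of BM333948. Its signal in the Medium scans, after subtraction of local background, was lowest at 6427, median 8062 and highest at 15219 units in nitrate, against a lowest of 232, a median of 800 and a highest of 2770 units in control. All 6 nitrate samples were above all 6 control samples. The log2 ratios ran from 2.78 to 4.47, and the fitted ratio of 3.46 ± 0.32 (SE) corresponds to 11.0-fold (limma, adjusted p = 4.71e-07). The mean log2 ratio was 3.25 with nitrate on Cy5 and 3.67 with nitrate on Cy3.

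DQ011869 had the second largest rise. It had Medium-scan signals of 14606 to 25237 units in nitrate (median 18804), against 1471 to 4511 units in control (median 2392), again without overlap between the groups. Its nitrate signal reached the ceiling in the High scan of replicate 6. The log2 ratio was 3.66 in that scan, against 3.65 in the Low and 3.76 in the Medium scan. The fitted log2 ratio was 3.04 ± 0.14 (SE), or 8.23-fold (limma, adjusted p = 2.13e-11), with means of 3.34 for nitrate on Cy5 and 2.74 for nitrate on Cy3.

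BM334491 and DV492356 were singled out after their values were seen, DV492356 for its course over time. BM334491 was picked because its 30 min ratios spread less than those of BM333948 and DQ011869. Its SD was 0.32, against 0.6 and 0.48, but the median SD of the higher probes was also 0.32. BM334491 had signals of 2879 to 6086 units in nitrate (median 4680), against 685 to 1344 units in control (median 912), without overlap. Its 6 log2 ratios lay between 1.94 and 2.73, with a fitted value of 2.25 ± 0.12 (SE), or 4.77-fold (limma, adjusted p = 9.61e-11). DV492356 varied widely within each treatment, with 7298 to 30900 units in nitrate (median 12162), against 2153 to 8894 units in control (median 3767). Its nitrate signal reached the ceiling in the High scan of replicate 6, whose log2 ratio was 2.34, against 2.94 in the Low and in the Medium scan. These ranges overlap, yet on each of the 6 arrays nitrate was above its own control. Its log2 ratios lay between 1.36 and 2.74, with a fitted value of 1.80 ± 0.14 (SE), or 3.47-fold (limma, adjusted p = 3.58e-08).

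**Figure D2:**
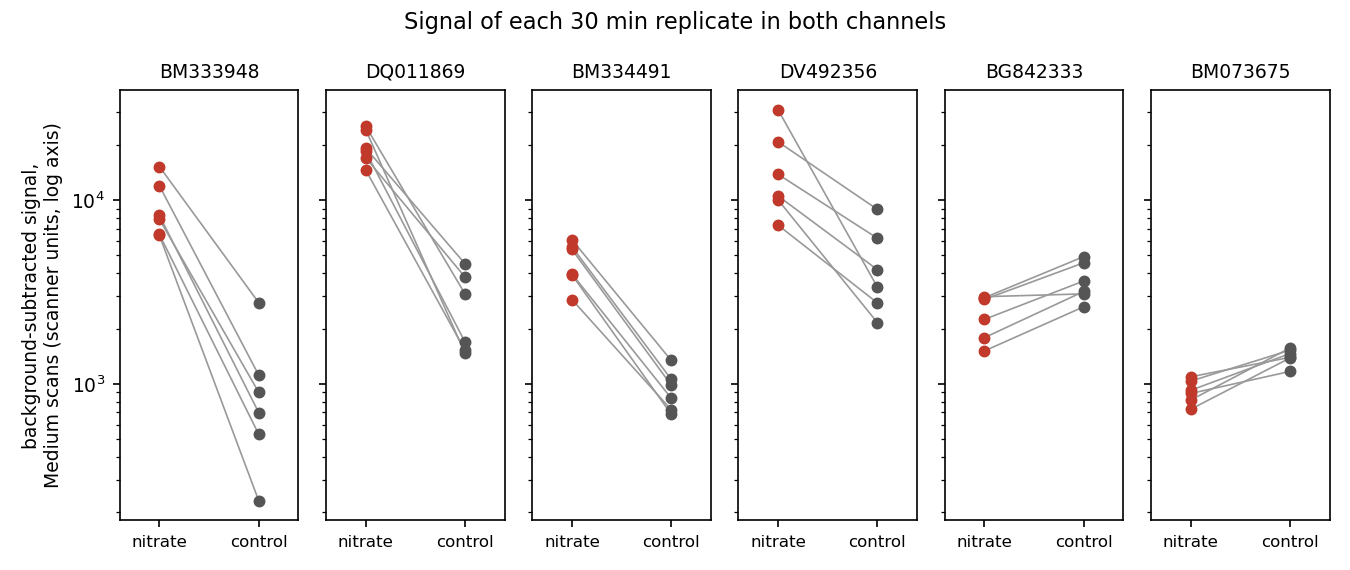
Background-subtracted signal in the Medium scans (vertical log axis, scanner units) of 6 probes in the nitrate sample (left, red) and the control sample (right, grey) of each 30 min replicate, with a line for each array. In BM333948, DQ011869 and BM334491 every nitrate point lies above every control point, while in BM073675 every nitrate point lies below in these scans.

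The falls were small, and their calls depended on the processing. BM073675 had Medium-scan signals of 729 to 1094 units in nitrate (median 906), against 1170 to 1569 units in control (median 1430), and the groups did not overlap. At the other powers they did, with 207 to 466 units in nitrate and 329 to 761 in control in the Low scans and 1776 to 2609 and 2527 to 4881 in the High scans, and nitrate was above its control in 1 Low scan. Its log2 ratios ran from -1.17 to -0.21, with a fitted value of -0.58 ± 0.14 (SE; limma, adjusted p = 0.0421). The mean was -0.77 with nitrate on Cy5 and -0.39 with nitrate on Cy3. BG842333 had 1513 to 2984 units in nitrate (median 2566), against 2630 to 4929 units in control (median 3410). Its groups overlap, but nitrate was below control on 6 of 6 arrays in the Medium and in the High scans. In the Low scans nitrate was above its control in 1. The log2 ratios of BG842333 were -0.97 to -0.31, with a fitted value of -0.57 ± 0.14 (SE, limma, adjusted p = 0.0463). Both were chosen among probes with one sign in all 6 replicates, as were BM333948 and DQ011869. Over 33 other settings of the processing and the replicates, DQ011869, BM334491 and DV492356 passed in all 33, and BM333948 did not pass in 1, from replicates 1, 3 and 5 alone (log2 ratio 2.44; limma, adjusted p = 0.0804). BM073675 did not pass in 20 and BG842333 in 23.

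The 3 probes with a name did not pass. AI665898 corresponds to LOC100191184, which has reticulon among its synonyms; reticulons shape the tubules of the endoplasmic reticulum. Its signal was 1514 to 3226 units in nitrate and 1108 to 3263 units in control, and its log2 ratios ran from -0.48 to 0.53, with 3 of 6 above 0. The probe rf2e3 had 90 to 400 units in nitrate and 159 to 458 units in control, and its log2 ratios lay between -0.43 and 0.40. The probe colim15a had -5 to 212 units in nitrate and 52 to 174 units in control, and log2 ratios of -0.82 to 0.20. Adjusted p was 1 for each of the 3 (limma, n = 6), and ratios near the local background carry little information.

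**Figure D3:**
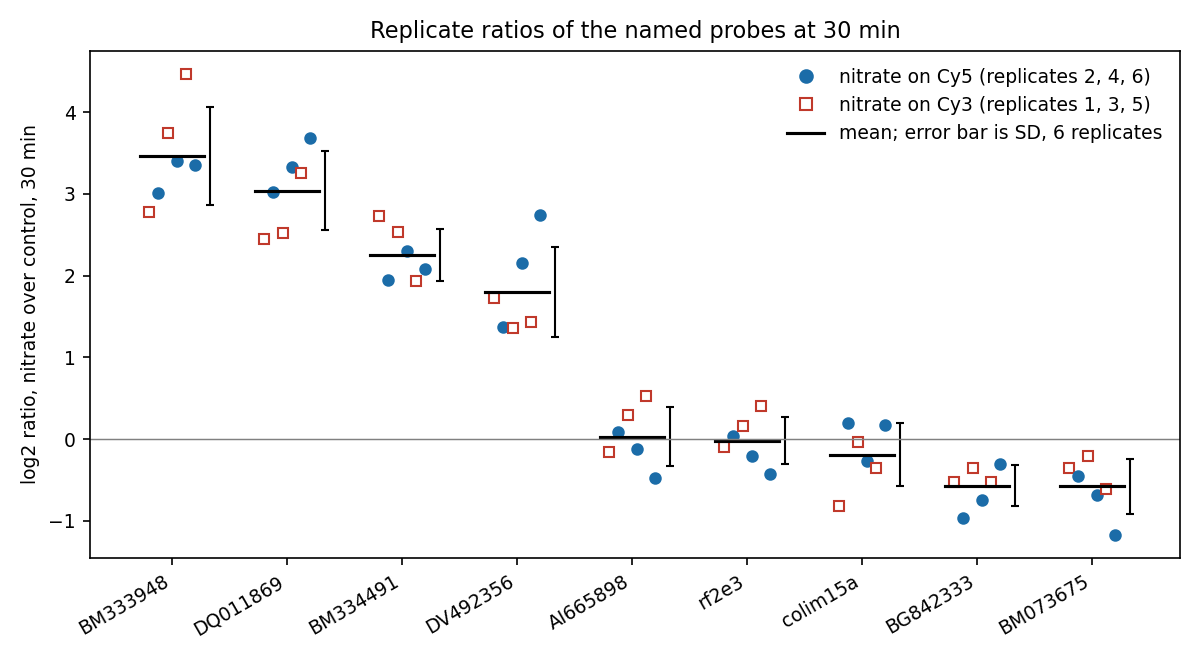
Log2 ratio of nitrate over control at 30 min (vertical axis) in each of 6 replicates for 9 probes (horizontal axis), with filled circles for nitrate on Cy5, open squares for nitrate on Cy3, a bar at the mean and an error bar of 1 SD. BM333948, DQ011869, BM334491 and DV492356 lie above 1 in every replicate, and the 3 probes with a gene name lie on both sides of 0.

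Among themselves, the 82 higher probes had a median fitted log2 ratio of 0.72, with values from 0.42 to 3.46, and a median SD over replicates of 0.32. Over all probes the median SD was 0.28. All 6 replicates were above 0 for 77 of the 82 and 5 of 6 replicates for the other 5, where 2.04% of all probes were above 0 in every replicate. Below 0 in every replicate were 5 of the 6 lower probes, against 0.793% of all probes. The test used these same replicates, so nothing is read from this agreement. The median of the higher probes was 0.69 with nitrate on Cy5 and 0.72 with nitrate on Cy3.

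The replicates were not alike in spread. The median log2 ratio of the 82 probes was 0.68, 0.57, 0.76, 0.79, 0.91 and 0.88 in replicates 1 to 6. The SD of all 7688 log2 ratios was 0.21 in replicate 4, 0.27 in replicate 3, 0.29 in replicate 2, 0.36 in replicate 1, 0.47 in replicate 6 and 0.49 in replicate 5. In replicate 6, 167 probes were over 2-fold higher and 41 over 2-fold lower, and in replicate 5 the numbers were 73 and 116. In replicate 4 they were 37 and 0. Over all probes, ratios of nitrate over control correlated at 0.03 to 0.65 between replicates of the same dye orientation and at -0.57 to 0.27 between replicates of opposite orientation. Set against the mean of the other 5 replicates, the correlation was 0.46 in replicate 4 and 0.45 in replicate 3, but 0.12, 0.11 and 0.02 in replicates 2, 1 and 5 and -0.25 in replicate 6. The lowest value between a pair was that of replicates 5 and 6, whose ratios correlated at 0.57 when read as Cy5 over Cy3. These are correlations across probes and arrays of one design, and most of the probes did not pass. Local background of the Cy3 channel in the High scans was 1610 and 1700 units in replicates 5 and 6, against 202 to 757 units in replicates 1 to 4, and its part in the result was not tested. From replicates 1 to 4 alone 39 probes passed, all of them higher, and from replicates 5 and 6 alone 44 higher and 2 lower.

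**Figure D4:**
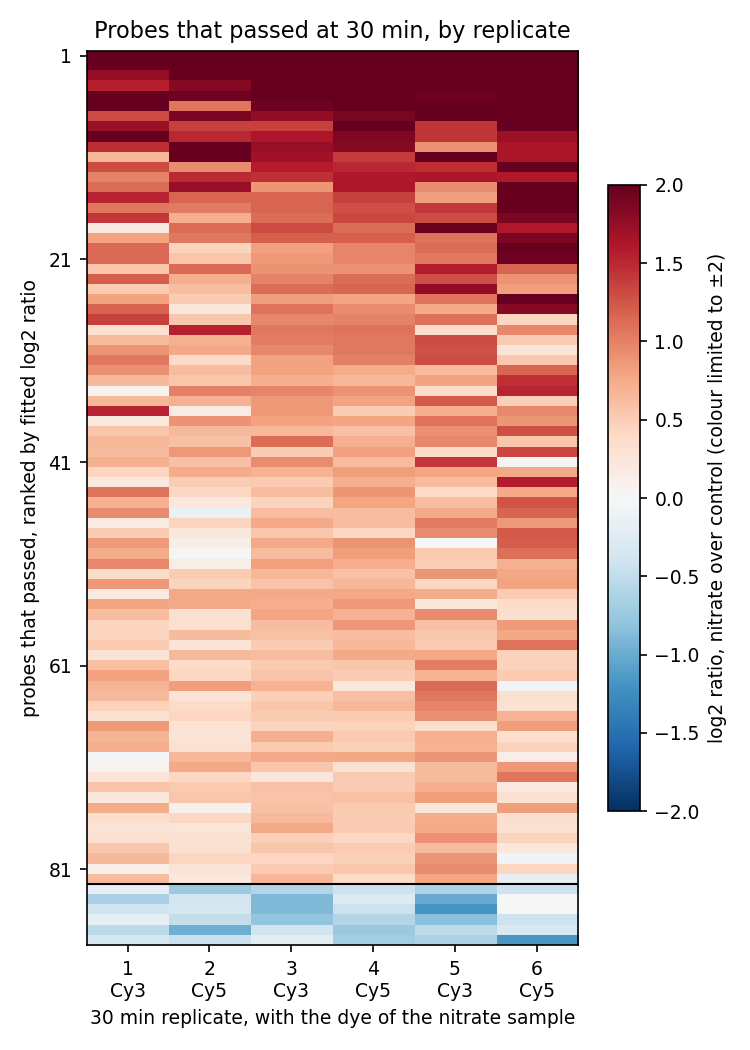
Log2 ratio of nitrate over control (colour, limited to ±2) of the 88 probes that passed at 30 min, ordered down the page by fitted ratio, in each of the 6 replicates across the page with the dye of the nitrate sample. The 82 higher probes stand above the black line and are red in nearly every replicate, with 5 of them below 0 in 1 replicate, and the 6 lower probes below the line are pale blue.

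To read the response in arrays that took no part in the call, probes were called from the other replicates and then looked up in the replicate left out. Without replicate 3, 66 higher probes passed and 66 of them were above 0 in that replicate, where 50.5% of all probes were. For replicate 4 the numbers were 58 of 58, for replicate 5 57 of 58, for replicate 2 78 of 80, for replicate 1 93 of 99 and for replicate 6 53 of 57. The share of all probes above 0 was 49.6% to 50.5%. The median log2 ratio in the replicate left out was 0.57, 0.51, 0.85, 0.90, 1.03 and 1.17 for replicates 1 to 6, where the fits from the other replicates gave 0.68, 0.79, 0.79, 0.87, 0.87 and 0.84. A single array also carries its dye. With the dye effect fitted from the other arrays removed, 78 of 99 were above 0 in replicate 1, with a median of 0.36, and 65 of 80 in replicate 2, with a median of 0.54. In replicates 3 to 6 that correction left 56 to 66 probes above 0, at medians of 0.79 to 1.14. Lower calls were few in every such fit. The 6 made without replicate 1 were below 0 there in 5 cases, the 4 made without replicate 2 in 3, the 2 made without replicate 6 in 1 and the 1 made without replicate 4 in 1.

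**Figure D5:**
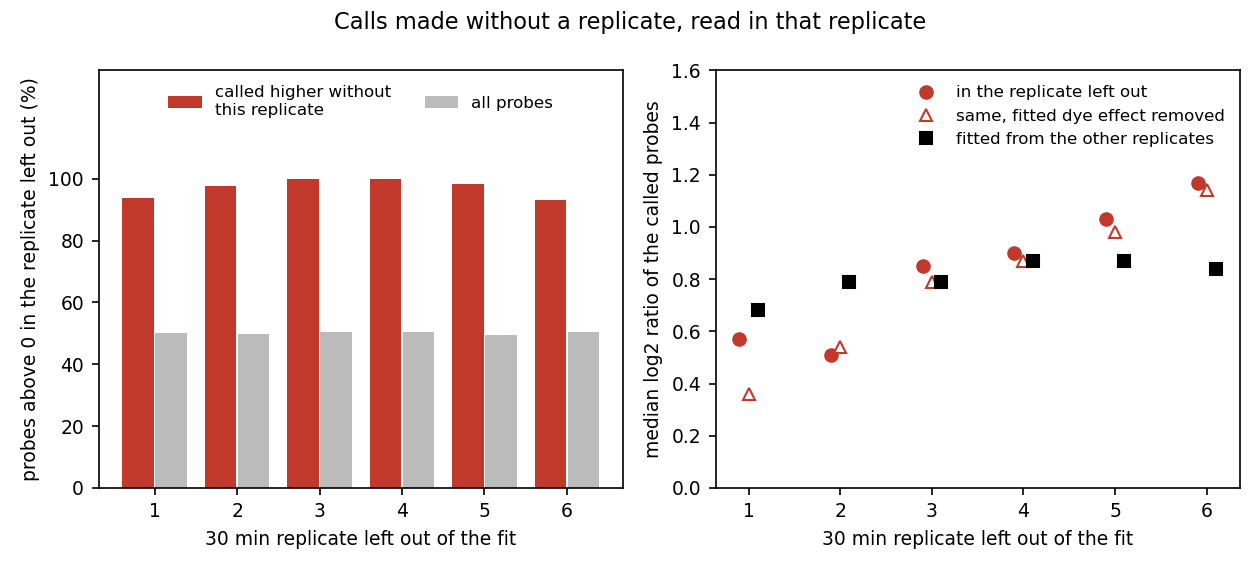
Left: percent of probes above 0 in the replicate left out (vertical axis, from 0) for probes called higher from the other replicates (red) and for all probes (grey), by replicate left out. Right: median log2 ratio of the called probes in that replicate as measured (circles) and with the fitted dye effect removed (triangles), and as fitted from the other replicates (squares); red bars are at 93.0% or more and grey bars near 50%.

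The swapped dyes gave a second reading. The 12 probes that were over 2-fold higher in each of the 3 replicates with nitrate on Cy3 were also over 2-fold higher, on average, with nitrate on Cy5, at a median log2 ratio of 2.03. Of the 24 probes that were over 2-fold higher in each of the 3 replicates with nitrate on Cy5, 17 were above 0 with nitrate on Cy3 and 16 over 2-fold higher. Another 2 probes were over 2-fold lower in each replicate with nitrate on Cy3 and had a median of 2.18 with nitrate on Cy5. A dye effect that passed in the 6 arrays alone was found for 75 probes (0.976%), with 72 brighter in Cy5. That number was 23 without replicate 1, 142 without replicate 2, 40 without replicate 5 and 17 without replicate 6. Joint fits with the 30 min arrays of 1 orientation alone, with the dye effect taken from the 24 h arrays, gave 72 higher and 15 lower probes with nitrate on Cy5, 48 of them among the 88. With nitrate on Cy3 they gave 31 higher and 5 lower, 31 of them among the 88.

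The number of calls depended on scan power. From the Low scans alone 86 probes passed (77 of them among the 88), from the Medium scans alone 67 (66 of them) and from the High scans alone 55 (55 of them). Between scans of the same 30 min array, the correlation over all probes was 0.72 to 0.83. Some probes had 2 spots on the slide under the same accession. For 194 probes the spots came under more than 1 clone collection name, so clone source and position cannot be told apart. Over 200 probes with 2 spots, the 30 min ratios of the 2 spots differed by a median of 0.06 and correlated at 0.75. The 4 probes of this kind that passed were higher in both spots, with log2 ratios of 0.42 and 0.91 for BG840791 and of 1.28 and 1.31 for BG841986, which were picked after their values were seen as the least and most alike of the 4. The test used the mean of the 2 spots, so nothing is read from their shared sign.

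Probes came from several clone collections, named in the deposited files. Those under the name re-array passed in 26 higher and 2 lower cases of 1562 probes (1.79%), and those under stan in 44 and 4 cases of 5057 (0.949%). Of the re-array probes 20.5% passed at 24 h, and of the stan probes 12.7%. The 95 probes under rearray 21m held 2 higher probes (2.11%), of which DQ011869 was one. The difference between collections was not tested.

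How far the early ratios lasted was read from the arrays at 24 h, which were of other plants. Replicate 3 at 24 h stood apart, with 21.9% of Medium-scan spots and 30.4% of High-scan spots at the ceiling. At 24 h 562 probes (7.31%) were higher and 565 (7.35%) lower, a close to even split. From the Low scan alone of that replicate the numbers were 614 and 629, and without the replicate 438 and 384. In the direct test of the ratio at 24 h minus that at 30 min, 177 probes (2.3%) were higher at 24 h and 149 (1.94%) lower, and without 24 h replicate 3 the numbers were 159 and 127. Among the 82 early higher probes 10 were higher and 27 lower by this test, and 37 passed in either direction. Set against all probes called at 30 min in the same fit, these were 37 of 88. Without 24 h replicate 3 the numbers were 31 of 81. They were 23 of 66, 23 of 59 and 24 of 58 without 30 min replicates 3, 4 and 5. The 25 probes over 2-fold at 30 min had a median log2 ratio of 0.89 at 24 h, with a range of -0.46 to 5.56, and of 1.46 at 30 min. At 24 h 16 of the 25 were called higher, and by the direct test 3 had a higher and 9 a lower ratio at 24 h than at 30 min. The 25, the 82 and the 88 probes were all chosen by their 30 min ratios, which also enter the difference. For higher probes that choice favours a lower ratio at 24 h. The counts and the medians are therefore a description.

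The probes named above, 2 of them singled out after their values were seen, fall on different courses. BM334491 had log2 ratios of 3.14 to 3.70 at 24 h and of 1.94 to 2.73 at 30 min. The groups of replicates do not overlap, and the ratio was higher at 24 h by 1.07 ± 0.17 (SE, limma, adjusted p = 0.00041). DV492356 had log2 ratios of -0.53 to 0.51 at 24 h, on both sides of 0, and of 1.36 to 2.74 at 30 min. BM333948 spread widely at 24 h, between 3.03 and 7.93, against 2.78 to 4.47 at 30 min, so that the ranges overlap although the difference passed the test. Its 24 h ratios were 3.03 to 5.54 with nitrate on Cy5 and 5.42 to 7.93 with nitrate on Cy3. The part of the dye in that spread was not tested. DQ011869 stood at 2.88 to 3.84 at 24 h and 2.45 to 3.69 at 30 min, and the test of the difference was not passed (0.40 ± 0.20 SE; limma, adjusted p = 0.347). All 6 of the early lower probes were also called lower at 24 h, with medians of -0.64 at 24 h and -0.54 at 30 min, and 0 of them passed in the difference. Some of their 24 h ratios differed by dye. Those of DV549983 were 0.02 to 0.26 with nitrate on Cy5 and -1.62 to -0.85 with nitrate on Cy3. Those of BG842333 were below 0 in both orientations, at -1.35 to -0.63 and -1.56 to -0.3.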

How the data were processed

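The scan files hold, per the file headers, the intensity of every spot and of its surroundings in Cy3 and Cy5, up to 65535 units, with normalized values by the authors. The deposited normalized values followed the natural log of the background-subtracted intensity (slopes of 0.97 to 1.04), and the deposited final value equalled Cy5 minus Cy3 on the natural log scale (largest gap 8.9e-16), centred near 0 (medians of -0.0324 to 0.00924). Which scanner, image software and normalization the authors used is not given in the sources used. The number of columns belonging to no labelled sample was 0.

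Intensity was processed in R 4.3.3 with limma 3.58.1: normexp with an offset of 50 on foreground means and background medians, loess within each scan, and log2 ratios turned to nitrate over control by the dyes the labels give. Spots of a probe, then scans of a replicate, were averaged (7888 spots, 7688 probes). Saturated spots were kept. A limma model over 12 replicates held a ratio for each time and a common dye effect (9 residual and 10.9 prior degrees of freedom), with Benjamini-Hochberg adjustment over all probes. The median SE at 30 min was 0.12. The code was tested on simulated data. Replicate numbers do not pair plants across times, per the labels.

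Probes named were the 2 largest of each direction with one sign in all 6 replicates, those with a gene name, and those said to be singled out. The comparison, the probes and the lists were chosen with earlier results of these data known. Alternatives to background correction, normalization, scans, dye term, weights, thresholds and replicates were tried.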

Additional observations from a re-analysis of the deposited data

Results flagged for a closer look

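A search for a lone distant value among 6 replicates covered 27 sets of 30 min values and found 3, where chance gives about 1 in 20. In the Low scan of replicate 1 the median Cy3 foreground was 1420 units, and the other 5 replicates had 970 to 1120. The same scan had 0.368% of its spots at the scanner's ceiling, and the other 5 had 0 to 0.114%. In the Low scan of replicate 4, 0.558% of spots were at or below local background, against 0 to 0.165%.

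By the direct test of the ratio at 24 h minus that at 30 min (limma), 3 named probes differed between the times. Of these, BM334491 was singled out for a smaller 30 min spread than in BM333948 and DQ011869, and DV492356 for its course over time, after their values were seen. The p-values of these probes are therefore a description. The log2 difference was 2.11 ± 0.45 (SE) for BM333948 (adjusted p = 0.00702), 1.07 ± 0.17 for BM334491 (adjusted p = 0.00041) and -1.87 ± 0.19 for DV492356 (adjusted p = 3.61e-06). Without 24 h replicate 3, whose High and Medium scans were the most saturated, the differences were 2.20, 0.98 and -1.93, with adjusted p-values of 0.00973, 0.00178 and 8.76e-06 (limma).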

How the results depend on the processing

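Of 26 settings that kept every replicate or changed whole sets of them, 18 gave a number within 1.5 times of the 88 probes at 30 min, and the share of calls that were higher was 82.8% to 100% throughout. The count was 169 with scaling between scans (142 higher, 27 lower), 50 without a dye effect, 55 from High scans alone, 38 with a minimum change of 0.25, 35 with no replicate block and channels as separate samples, which leaves the array out of the model, and, in settings chosen after seeing the data, 39 from replicates 1 to 4, 46 from replicates 5 and 6 and 36 from replicates 1, 3 and 5, which leave fewer arrays. Replicates 2, 4 and 6 gave 87, of which 48 were among the 88. These fits of some 30 min replicates kept the 24 h arrays. With a replicate block across times the count was 105 (99 higher, 6 lower). Leaving out 1 replicate gave 58 (without replicate 5) to 105 (without replicate 1). The 37 of 88 probes that also passed in the difference became 23 of 55 from High scans and 24 of 67 from Medium scans. They became 16 of 50 without a dye effect, 22 of 59 at an adjusted p under 0.01, and 23 to 49 with 1 replicate left out. Each of these counts is taken among the 30 min calls of its own setting. Dye effects were 17 to 142 in place of 75. Except where the setting itself has fewer arrays or a stricter limit, the cause was not tested. In all 26 tested settings other than the 7 chosen after seeing the data, 25 of the 88 passed, all higher, with log2 ratios of 0.78 or more, and 16 (10 higher, 6 lower) passed in under 50% of them. In all 33 settings 12 passed. Fitted log2 ratios spanned 2.44 to 4.98 for BM333948, 2.77 to 4.38 for DQ011869, 2.00 to 3.34 for BM334491, 1.65 to 2.60 for DV492356, -1.06 to -0.10 for BM073675 and -0.88 to -0.41 for BG842333. Signal near background limits the dimmest probes.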
